A study of Drosophila melanogaster with 4 samples.

Results

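The left arm of chromosome 3 (3L) of Drosophila melanogaster carried 833 of the 4389 peaks in a map of Abd-B-GFP binding, or 19.0% (exact Clopper-Pearson 95% interval 17.8 to 20.2%). Every peak that the deposited list places on 3L was taken, with no filter on its values. The map comes from chromatin immunoprecipitation and sequencing (ChIP-seq) of third-instar (L3) larvae of strain Abd-B-GFP, of unknown sex, collected while wandering. All 4 libraries, 2 of ChIP DNA and 2 of input DNA, share the genotype w; PBac{y[+]-attP-3B}VK00037 and a transgene in which GFP replaces the stop codon of the genomic Abd-B coding region. The ChIP libraries were made with the GFP antibody ab290, and the input libraries are the control. The protocol text names the stock y; bw cn sp instead. The peak list keeps no library apart, so no value below has a replicate error. Intervals cover counting error only and treat peaks as independent.

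Abd-B is the most posterior Hox protein of the bithorax complex. It is a homeodomain transcription factor that gives the rear abdominal segments, the genital disc and the posterior spiracles their identity. Hox proteins bind short sequences that are common in the genome, and their binding in development is known to gather at regulatory DNA, often in several separate elements around a target gene. In whole larvae a peak averages over all tissues, so strong binding in few cells and weak binding in many cannot be told apart. No value in the list tests whether the tagged protein was present.

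Together the 3L peaks covered 407 kb. The median width was 396 bp, the quartiles were 279 and 584 bp, and the extremes 201 and 2802 bp. Each peak also has a score, a value given by the authors' peak caller, which ranks strength within this list and has no stated unit. The median score on 3L was 14.81, the quartiles were 10.85 and 24.07, and the extremes 6.18 and 224.48. Most 3L peaks therefore scored low relative to the strongest, with a small number far above them.

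The peaks were spread unevenly along the arm. Positions are in FlyBase release 5 and count from the telomere end. In the 24 complete bins of 1 Mb the count was 34.5 ± 11.6 peaks (SD over bins, which are not replicates), from 10 to 54. The densest bin was the one from 19000001 to 20000000, with 54 peaks. It was followed by the bin from 8000001 with 51, the bin from 17000001 with 50, and the bins from 1 and from 16000001 with 49 each. These crowded bins did not all hold strong peaks. The densest bin of the arm reached a score of only 45.70, and 0 of its peaks exceeded 50, whereas 9 of the 50 peaks in the bin from 17000001 did.

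A broad rich stretch and a broad poor stretch lay side by side. The 4 bins from 16000001 to 20000000 held 194 peaks, or 23.3% of the arm. The 4 bins before them, from 12000001 to 16000000, held 96 peaks, or 11.5%. Counts fell most towards the centromere end. The bin from 23000001 held 10 peaks, the fewest of the complete bins, and the incomplete last bin held 4. The other sparse complete bins were those from 6000001 and from 13000001 with 22 peaks each and the bin from 5000001 with 23. The bins from 2000001, 12000001 and 14000001 followed with 24 each. The median scores of the last 2 bins, 19.95 and 22.65, were above the 14.81 of the arm, but they rest on 10 and 4 peaks. The highest scores in these bins were only 32.58 and 43.01. Across the 24 complete bins, peak count and median score had a Spearman correlation of -0.12, given as a description of bins that share the same libraries.

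**Figure D1:**
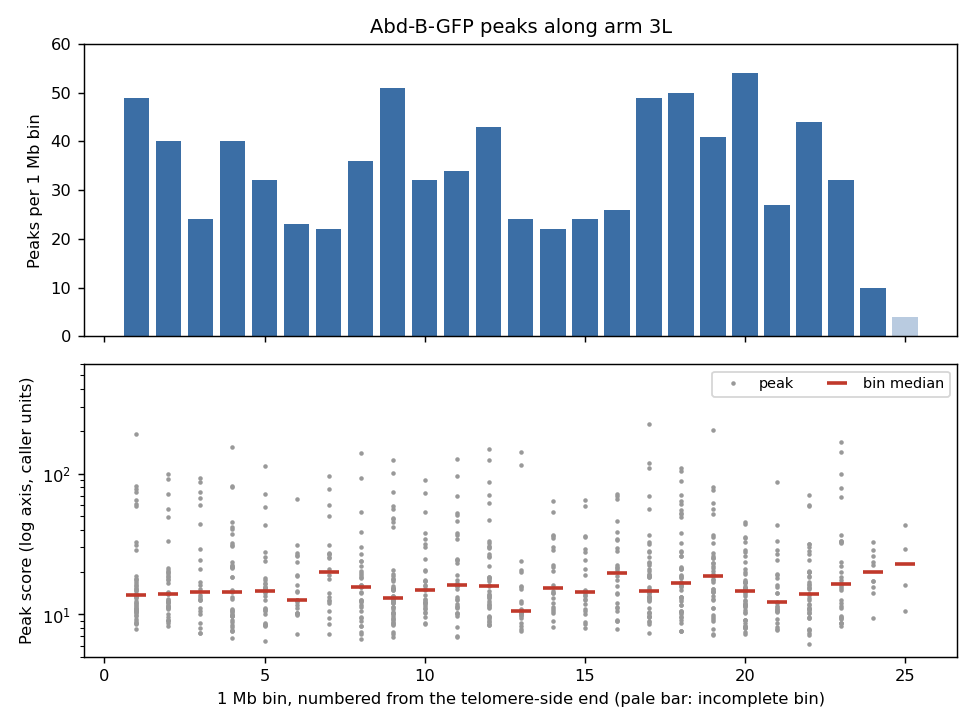
Upper panel, peaks per 1 Mb bin along 3L, with the incomplete last bin in pale blue. Lower panel, the score of every peak (grey points, log axis) and the median of each bin (red marks). Bin 20 holds the most peaks, 54, but none above a score of 50, and bins 24 and 25 hold 10 and 4.

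Long stretches held no peak at all. Neighbouring peaks were 10048 bp apart in the median, with quartiles at 1738 and 34498 bp, and 14 gaps of 200 kb or more made up 17.0% of the distance between the outermost peaks. The longest, 436 kb from 24021739 to 24457275, lay near the centromere end. The next was 400 kb long, from 13493232 to 13893684. A gap of 386 kb ran from 18227843 to 18614259, inside the rich stretch described above. The gap from 23332403 to 23707842 measured 375 kb. Those from 4841190 to 5177416, from 17044961 to 17371717 and from 9891568 to 10217827 measured 336, 327 and 326 kb. The eighth, of 255 kb, ran from 15255028 to 15509668. Most of the 14 gaps had no chain of 5 or more peaks (runs with no gap above 5 kb) at either end. Such chains held 15.1% of all 3L peaks. The exceptions were the gaps of 400 kb and of 249 kb, the latter from 22460671 to 22710039. They started at the last peak of a chain of 8 and of a chain of 5. The gap of 327 kb started at a peak that was 1782 bp wide but stood alone, 37496 bp from its nearest neighbour.

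**Figure D2:**
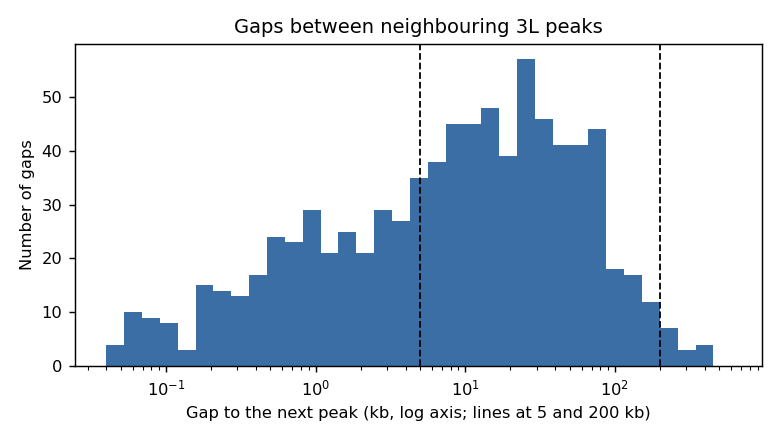
Number of gaps between neighbouring 3L peaks by length (log axis), with dashed lines at 5 and 200 kb. Of the 832 gaps, 313 are 5 kb or shorter and 14 are 200 kb or longer.

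Close peaks formed chains, defined here as runs of peaks with no gap above 5 kb. By this measure 352 peaks (42.3%) stood alone, 355 were in chains of 2 to 4, and 126 (15.1%) were in 21 chains of 5 or more. These 21 chains spanned 2.51 to 22.9 kb, with a median of 7.33 kb. The strongest peak was the first or last of its chain in 2 of the 21. Peaks in the larger chains had a median score of 14.82, against 15.51 for those standing alone. A score above 100 was reached by 2 of the 126 peaks in large chains (1.59%, exact 95% interval 0.193 to 5.62%) and by 11 of the 352 that stood alone (3.12%, 1.57 to 5.52%). These intervals overlap.

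The largest chain of the arm held 14 peaks from 17550034 to 17572978. It depended on how peaks are divided and on the weak ones. With peaks less than 1 kb apart merged, the largest chain held 7 regions and started elsewhere, at 8677847, and with peaks below the whole list's median score left out it held 6 peaks and started at 17599856. The chain of 14 lies within the 50 kb window with the most peaks on 3L, 17, and spans 22.9 kb of it. From general knowledge, unchecked in release 5, this is near the ecdysone-induced gene Eip74EF, which encodes an ETS-domain transcription factor. Its strongest peak, at 17562957 to 17563813, had a score of 104.29. In order along the chain, the first peak had a score of 52.86, the third 61.02 and the sixth 51.99. The thirteenth, 1100 bp before the end peak, had 54.90. These 4 and the strongest are the only peaks of the chain above 50. The weakest, at 17568009 to 17568382, had a score of 9.08. Strong and weak peaks were mixed along the chain, with gaps from 53 to 4676 bp and a median of 648 bp, and 8 of the 13 gaps were under 1 kb. A second chain of 7 peaks, from 17596381 to 17612580, followed within the same stretch and reached 71.12.

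**Figure D3:**
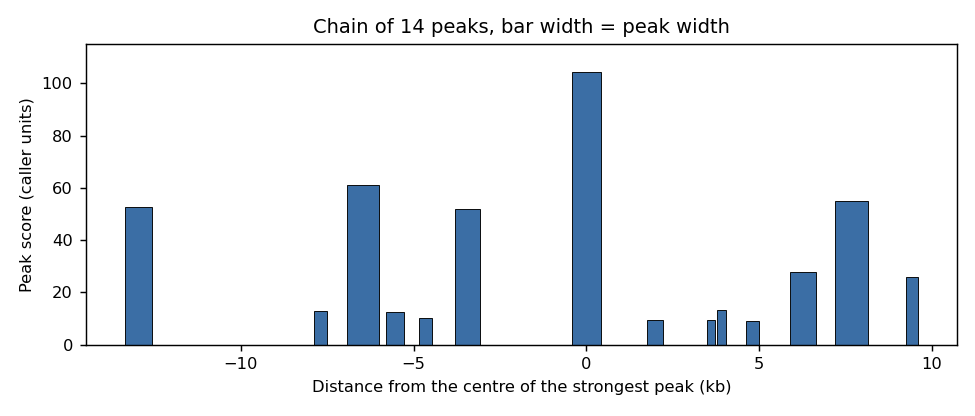
Score of each of the 14 peaks of the largest 3L chain against distance from the centre of its strongest peak (kb), with bars as wide as the peaks. The 5 peaks above a score of 50 lie among weaker ones, and the highest reaches 104.29.

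The other chains of 6 or more peaks were weaker. The chain of 8 from 13481683 to 13493232 had scores from 10.61 to 16.32. Within the 50 kb window with the second most peaks, 15 from 8650001 to 8700000, lay a chain of 6 from 8661641 to 8669452 that reached 41.76 and a chain of 7 from 8677847 to 8698679 that reached 20.66. The chain of 7 from 1088743 to 1101444 reached 21.33, the chain of 6 from 8812373 to 8821750 reached 18.67 and the chain of 6 from 11282151 to 11291413 reached 46.62. The remaining 4 of the 6 most crowded windows held 9 peaks each and started at 13450001, 16150001, 19000001 and 21000001. Of these 4, the window from 21000001 had the highest median score, 30.00, against 13.11 to 18.98 in the other 3.

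Of the 15 strongest peaks, 12 (80.0%) lay in 50 kb windows with fewer than 5 peaks, as did 63.9% of all 3L peaks. The top peak, at 16044965 to 16046293, had a score of 224.48 and a width of 1329 bp. The second, at 18752010 to 18752865, had 203.88 and was narrower, at 856 bp. The third, at 318602 to 319972, had 190.95, and its nearest neighbour was 22851 bp away. They were followed by peaks at 22887285 to 22888702 with 167.60, at 3416989 to 3419069 with 156.03 and at 11003245 to 11004186 with 149.46. The last of these had a strong neighbour 373 bp away, at 11001736 to 11002871, with a score of 124.57, so that 2 of the 15 strongest peaks of the arm form a pair. The peak at 12117223 to 12118195 had 143.57, that at 22448770 to 22449951 had 142.74, and that at 7241912 to 7243526 had 140.99. The peaks at 10891057 to 10892186, 8779704 to 8780768 and 16284719 to 16285703 had 128.31, 124.51 and 118.92. The last of the 15 strongest were at 12685583 to 12686986 with 116.12 and at 4108255 to 4109035 with 114.53.

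A score above 100 was reached by 20 peaks of 3L, and 11 of these stood alone, as did 42.3% of all 3L peaks. For the 20 peaks together the nearest neighbour was 8087 bp away in the median, against 3274 bp over all 3L peaks. The limit of 100 is arbitrary. The 3 peaks just above it had scores of 100.02, 101.46 and 104.29, and the 3 just below had 99.15, 95.86 and 95.86.

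Width and strength went together with exceptions. Over the 833 peaks the Spearman correlation between both measures was 0.74, given as a description because a peak caller can tie both measures together. With the peaks ordered by score and cut into 5 equal groups, the median width was 255 bp in the weakest group and 763 bp in the strongest. The widest peak, at 22815547 to 22818348, measured 2802 bp and had a score of 78.76, and the next, of 2081 bp, was also among the strongest, with a score of 156.03. The 3 widest after these scored lower, though above the arm's median of 14.81. They measured 1837 bp at 11286601 to 11288437, 1826 bp at 10657767 to 10659592 and 1798 bp at 7426759 to 7428556, with scores of 30.60, 24.25 and 19.82. The other 5 of the 10 widest ran from 1615 to 1796 bp, with scores from 28.46 to 140.99. Of the 55 peaks of 1000 bp or more, 10 had a score below the upper quartile of the arm. The 3 peaks nearest to that width on either side measured 1006 to 1010 bp and 995 to 997 bp.

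**Figure D4:**
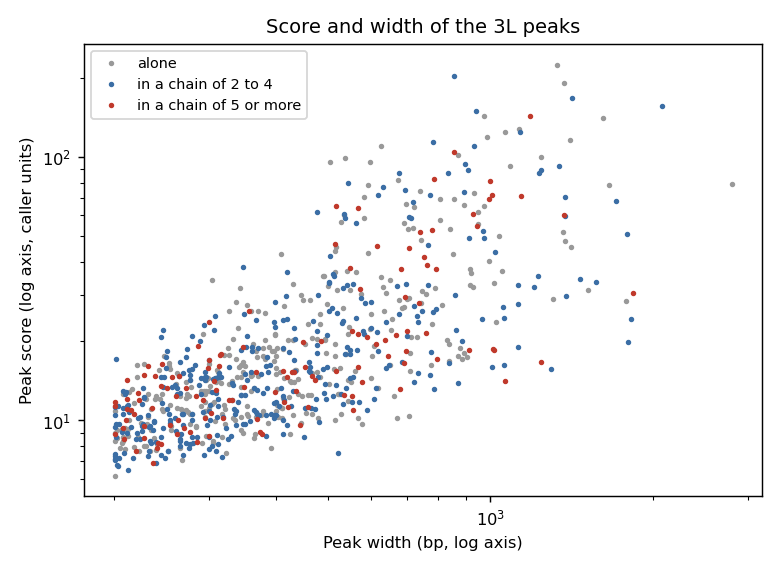
Score against width for the 833 peaks of 3L (both axes logarithmic), coloured by whether a peak stands alone or in a chain. Wide peaks tend to score high, and the peaks of large chains (red) lie among the others rather than above them.

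Developmental loci were placed on the map only coarsely, because no release 5 annotation was used. Each stretch below is the set of 100 kb windows that hold the recalled place of a gene, from general knowledge, and the placement was not checked in release 5. It says that peaks lay in the neighbourhood, not in the gene, and other genes share each stretch. The 20 stretches, with 26 genes, are set beside the 246 windows of 100 kb on the arm, which held 3 peaks in the median, with an upper quartile of 5, and of which 42 (17.1%) were empty. Other genes of the planned list, among them Blimp-1 and Eip78C, were left out, so the stretches are only a part of it. No test was made, since the stretches were chosen with the peaks known.

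Among the 20 stretches kept, the one with the most peaks, and the one with the strongest peaks by median, held genes of the ecdysone response. Blimp-1 and Eip78C, planned genes of the same response, were left out, so nothing follows for this class of genes. The stretch of Eip74EF, from 17500001 to 17700000, held 31 peaks, of which 21 lay in the richest 100 kb window of the arm. The stretch of Eip75B, which encodes a nuclear receptor, held 16 peaks from 17900001 to 18100000, with scores up to 81.03. Per 100 kb this was 8, the same as the stretch of dally. It was fewer than in the stretches of hairy (15), emc (13) and aos (11), described below. The stretch of ftz-f1, a nuclear receptor gene that acts between ecdysone pulses, held 7 peaks from 18700001 to 18800000. Their median score of 51.96 was the highest of the 20 stretches, and the second strongest peak of the arm was among them.

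Patterning and signalling loci ranged from crowded to nearly empty. The stretch of hairy, which encodes a bHLH repressor, held 15 peaks with scores up to 41.76. That of emc, which encodes an HLH protein that restrains proneural factors, held 13 with scores no higher than 18.89. The stretch of aos, which encodes a secreted inhibitor of the EGF receptor, held 11 with scores up to 36.72. The 200 kb around bab1 and bab2, whose BTB-domain products control leg patterning and abdominal pigmentation, held 15 peaks with scores up to 33.03. The stretch of dally, which encodes a glypican, held 8, and that of eyg, a Pax gene, held 7. All of these exceeded the median window per 100 kb, but their median scores, from 11.28 to 14.02, lay below the arm's 14.81.

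The remaining stretches held 1 to 6 peaks per 100 kb, and in 3 of them a single peak scored above 100. The 300 kb around the Iroquois complex (ara, caup and mirr, homeodomain genes) held 5 peaks, and 1 of them had a score of 116.12. The stretch of th, also called Diap1, which encodes an inhibitor of caspases, held 4 peaks and among them the strongest of the arm. The stretch of trh, a regulator of the trachea, held 5 peaks with the third strongest of the arm among them. The stretch of the POU gene vvl also held 5, that of the GAGA factor gene Trl held 6, that of the forkhead gene croc held 4 and that of the Sox gene D held 3. The 300 kb around the recalled places of the cell death genes hid, grim and rpr held 6 peaks, up to a score of 25.29. One of the long gaps begins inside this stretch. The place of grim is the least sure: release 6 puts it just outside the stretch, and its release 5 place was not checked. The stretch of sens, a zinc finger gene of sensory organs, held 2 peaks, the 200 kb around kni and knrl held 2, and that of rho, which encodes a protease of the EGF pathway, held 1.

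**Figure D5:**
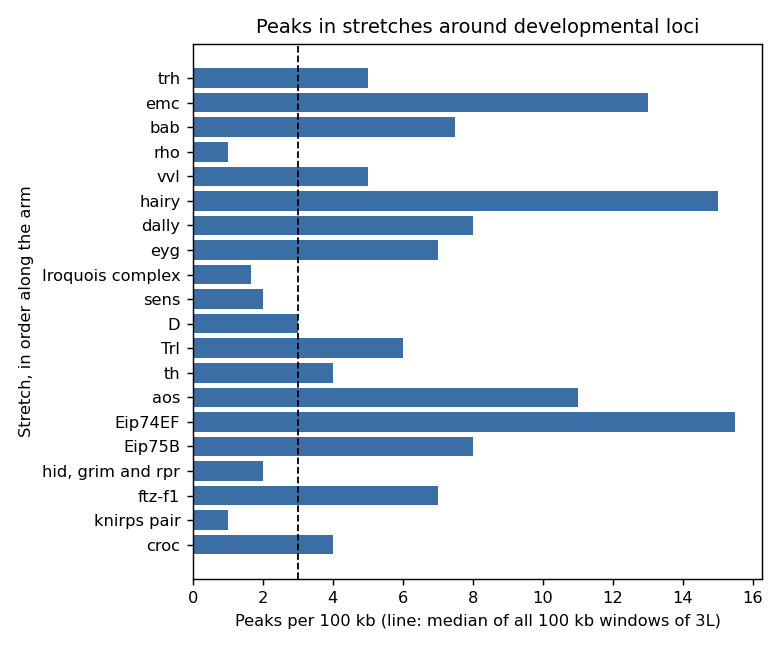
Peaks per 100 kb in 20 stretches around developmental loci of 3L, in order along the arm from the top. The dashed line is the median of all 246 windows, 3 peaks. The Eip74EF stretch stands highest at 15.5 per 100 kb and the rho and knirps stretches lowest at 1.

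The share of strong peaks on 3L was close to that on 2L, 2R and 3R. Scores above 100 made up 2.40% on 3L (exact 95% interval 1.47 to 3.68%), against 2.34% on 2L, 2.51% on 2R, 2.67% on 3R and 5.06% on X. Peaks of 1000 bp or more made up 6.60% on 3L (5.01 to 8.51%), 8.89% on 2L (6.80 to 11.4%), 8.84% on 2R (7.08 to 10.9%), 9.35% on 3R (7.66 to 11.3%) and 14.3% on X (11.7 to 17.2%). The interval of 3L lies wholly below that of X and overlaps those of 2L, 2R and 3R. The intervals treat peaks as independent, although 19.1% of the gaps on 3L were under 1 kb. They therefore do not serve as a test between arms. Chains of 5 or more peaks held 15.1% of the peaks on 3L, 16.05% on 2R, 15.6% on 3R, 12.9% on X and 8.74% on 2L. These shares depend on how peaks are divided. On 3L, merging peaks less than 1 kb apart cut the chains from 21 to 3. Gaps under 1 kb ranged from 14.7% of gaps on 2L to 21.1% on 2R among these arms. All values between arms are descriptions of 1 list, and no test between arms was made.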

How the data were processed

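ChIP-seq peaks were taken from 1 deposited list. Per the file headers, it is on FlyBase release 5, with MACS as the source of each peak. The submitters' processing notes list MACS2, BWA and CASAVA (1.7.0.2 and 1.7.0.3). How reads were filtered, how libraries were combined and where the peak threshold lay is not given in the sources used. The score of each peak is the authors' deposited value, undefined in the file, and was used only to describe and rank peaks. Depth per library is unknown.

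From the list, gaps, chains (no gap above 5 kb), 1 Mb bins and windows of 50 and 100 kb (a peak belongs to the window of its midpoint) were computed with Python 3.11.15, pandas 2.3.3 and SciPy 1.17.1, after tests on 20 simulated lists. Intervals are exact Clopper-Pearson at 95%. No test was run. Named were the 15 strongest and 10 widest peaks, the 5 densest and the 5 emptiest complete bins with ties, the 6 most crowded windows, the chains of 6 or more and the 8 longest gaps.

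The members and lists were chosen with earlier results of these data known. Locus places were recalled to about 10 kb and rounded outward to 100 kb windows. They were written down after the peaks and the RefSeq gene table, which is on release 6, had been seen. An earlier version of the locus list, adjusted with those release 6 coordinates in view, was discarded with the results built on it. For the list kept, the table was used for gene names, and 26 of 26 matched by symbol or synonym. Its release 6 coordinates also place grim just outside the recalled window.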

Additional observations from a re-analysis of the deposited data

Results flagged for a closer look

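Peaks also lay on 3LHet, the heterochromatic scaffold of the same arm, which the map of 3L leaves out. It is given here because no comparison above uses it. It held 17 peaks, with scores from 8.10 to 106.63 and a median of 17.64. They were unevenly placed, with 8 of them between 593326 and 606315.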

How the results depend on the processing

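Of 20 alternatives, 4 left a value within its interval or a count within 1.5 times, and 16 were marked as moved. These 16 include medians and the correlation, for which no interval is given here. An example is the median width, 396 bp against 469.5 bp after merging. Keeping only peaks at or above the median score of the whole list left 386 peaks on 3L. This lowered the share to 17.6%, the densest bin to 30 peaks, the windows of 50 kb with 5 or more peaks from 44 to 9 and the chains from 21 to 1. It raised the gaps of 200 kb or more to 27, the median gap to 27855 bp, the median score to 25.72 and the median width to 583.5 bp, and the correlation of score with width fell to 0.56. These follow in part from having fewer peaks, cut on the score. Merging peaks less than 1 kb apart left 674 regions, 24 such windows, 3 chains, a median gap of 15712 bp and a median width of 469.5 bp. Counting only the major arms gave a share of 20.3%, bins of 500 kb a densest bin of 82 peaks per Mb, and a chain gap of 10 kb gave 35 chains. The densest 1 Mb bin also depended on the setting: it was bin 18 in the stricter list and bin 9 after merging, instead of bin 20. No paired analysis was possible because peaks carry no values per library, and no replicate could be left out. Depth limits the weakest peaks first, but is unknown.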

Other observations

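Isolated peaks, more than 50 kb from any neighbour, numbered 37 (4.44% of the arm). Their median score of 14.81 equalled that of all 3L peaks. The strongest of them, at 967599 to 969260, had a score of 78.12, was 1662 bp wide and stood 62948 bp from its nearest neighbour. None of the 20 peaks above a score of 100 was isolated in this sense, too few peaks to set that apart from the 4.44% of the arm. The most isolated was a weak peak at 23707842 to 23708153, with a score of 14.25 and 227501 bp to its nearest neighbour.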
